A study of Mus musculus with 6 samples.

Results

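Ror1, Ror2, Wnt5a, Wnt5b, Ryk and Ptk7 are the genes of the ROR receptor family, its Wnt5 ligands and a pair of related Wnt-binding receptors. They were taken by gene name, and were chosen with earlier results of these data known. They make up 6 of the 36870 gene names and 13 of the 56605 probes on the arrays. Lung tumors of C57BL/6J mice were compared by 2-colour Agilent expression arrays, which hybridise a red-labelled (Cy5) and a green-labelled (Cy3) sample to the same probes. The tamoxifen group (3 samples) received tamoxifen for 4 weeks, from 16 to 20 weeks of age. The oil group (3 samples) received corn oil over the same weeks, and tumors of both were collected at 20 weeks. Both groups carried the genotype Ror1f/f; CAG-CreER; SPC-hEGFRdel746-750, so the oil mice too had the floxed Ror1 allele, the inducible Cre and the EGFR transgene. The CAG promoter drives the Cre broadly, and the SPC promoter drives the mutant human EGFR in surfactant-producing epithelium. No group without these alleles was analysed here. Samples were co-hybridised by number, tamoxifen 1 with oil 1 and so on, once in each dye orientation, which gave 3 couples on 6 arrays. Whether each number stands for a separate mouse is not in the labels, so p-values measure only the spread between these couples, which may be technical.

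ROR1 and ROR2 are single-pass receptors with a cysteine-rich Wnt-binding domain outside the cell and a kinase-like domain inside. WNT5A and WNT5B are secreted ligands that act mostly without beta-catenin, through Frizzled and ROR receptors, Dishevelled and the planar cell polarity proteins, on cell shape and movement. RYK and PTK7 are further kinase-like receptors of this branch. In human lung adenocarcinoma, ROR1 is known as a target of the lineage factor TTF-1 that sustains EGFR signalling.

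Probes of the ROR receptors and the Wnt5 ligands are shown because the pairs for Ror1 and Wnt5b, and probes 2 and 3 of Wnt5a, gave different readings; the single Ror2 probe is shown beside Ror1. Sequences come from the deposited scanner files, positions are on mm9, and bases 31 to 60 of each probe are printed 5′ to 3′. Whether a probe lies in a coding exon or a UTR was not analysed here, except that Wnt5a probe 3 spans 3963 bases of genome and so crosses an intron; it is printed whole.
Ror1 probe 1, chr4:100115077-100115136, plus strand: aaaccaatgaagaggaacagaacatagtta
Ror1 probe 2, chr4:100008142-100008201, plus strand: gatctgaaatacggcttgacctcagaacaa
Ror2 probe 1, chr13:53204795-53204854, minus strand: agcaacgttgtacagaaagcagtattgtta
Wnt5a probe 2, chr14:29340427-29340486, plus strand: gatgtaattaaaggttgatgtgagccaatc
Wnt5a probe 3, chr14:29331746-29335708, plus strand: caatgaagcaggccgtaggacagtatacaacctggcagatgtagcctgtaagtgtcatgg
Wnt5b probe 1, chr6:119382550-119382609, minus strand: ccctttgacattaaatatctttttactgag
Wnt5b probe 2, chr6:119383012-119383071, minus strand: agacccagaggccctgtggaaagacctgat

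Of the 13 probes, 8 were well above background in all 12 readings (6 for each group), a call of the scanner software, and 4 were above it in at most 1. Over the arrays, 51.8% to 58.8% of probes were above background in a channel. The brightest probe of each gene was tested, which kept all 6 genes among 20475 tested. Values are log2 ratios of tamoxifen over oil, averaged over the 2 arrays of a couple, and levels are normalized log2 signals that can be compared between samples but not between probes. By limma with Benjamini-Hochberg adjustment over all tested genes, 0 of the 6 genes passed an adjusted p of 0.05, where 0% of all genes did. The lowest adjusted p of any gene was 0.41, and 1436 genes had an unadjusted p under 0.05. Alternative limma fits of the same arrays called 56, 9 and 1 genes, and none of these calls was among the 6. In bulk tumor RNA, fewer cells of a type and less RNA per cell cannot be told apart.

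Ror1, the floxed gene, was higher in every tamoxifen sample than in any oil sample. Its probe 1, matched to NM_013845, read 9.35, 9.30 and 9.17 in tamoxifen tumors, against 8.76, 8.86 and 8.99 in oil tumors. The groups did not overlap, and the 3 couples gave log2 ratios of 0.58, 0.44 and 0.18. The mean was 0.40 ± 0.21 (SD, n = 3), a 1.32-fold higher level with a 95% interval of 1.08 to 1.61-fold. The unadjusted limma p was 0.015 and the adjusted p was 0.69, so the difference did not pass the test. The ratio was above 0 on all 6 arrays, between 0.061 and 0.70, and 1.47% of tested genes had a larger mean ratio. Of the 6 genes, Ror1 and Wnt5b were above 0 on all 6 arrays, as were 6.04% of tested genes, and 0 of the 6 were below 0 on all 6, as were 7.21%. Ror1 and Wnt5b also had all tamoxifen levels above all oil levels, as did 5.20% of tested genes, and 0 of the 6 had all of them below, as did 7.12%.

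The labels do not say which part of Ror1 is floxed, so it is not known whether probe 1 reads the deleted part, and its level checks neither the deletion nor the labels. Tamoxifen and oil therefore name the samples as labelled. Ror1 probe 2 starts 106935 bases from probe 1 and is matched to NM_001312690. It was above background in 0 of 12 readings, so its ratio of -0.092 ± 0.03 (SD, n = 3) is a reading of background.

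Ror2, the second ROR receptor, gave no ratio beyond the spread of the couples. Probe 1 read 6.45, 6.44 and 6.53 in tamoxifen tumors and 6.52, 6.86 and 6.42 in oil tumors. The groups overlapped, with the oil sample of couple 2 the highest. The couples gave -0.08, -0.41 and 0.11, a mean of -0.13 ± 0.26 (SD, n = 3) with a 95% interval of -0.45 to 0.20 and an adjusted limma p of 0.83. This was a dim probe, above background in 4 of 6 tamoxifen readings and 6 of 6 oil readings. Its net signal was 10.5 to 44.0 intensity units in tamoxifen and 15.1 to 91.0 in oil. The scanner software's own ratio gave a mean of -0.52, and without couple 2 the mean was 0.017.

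**Figure D1:**
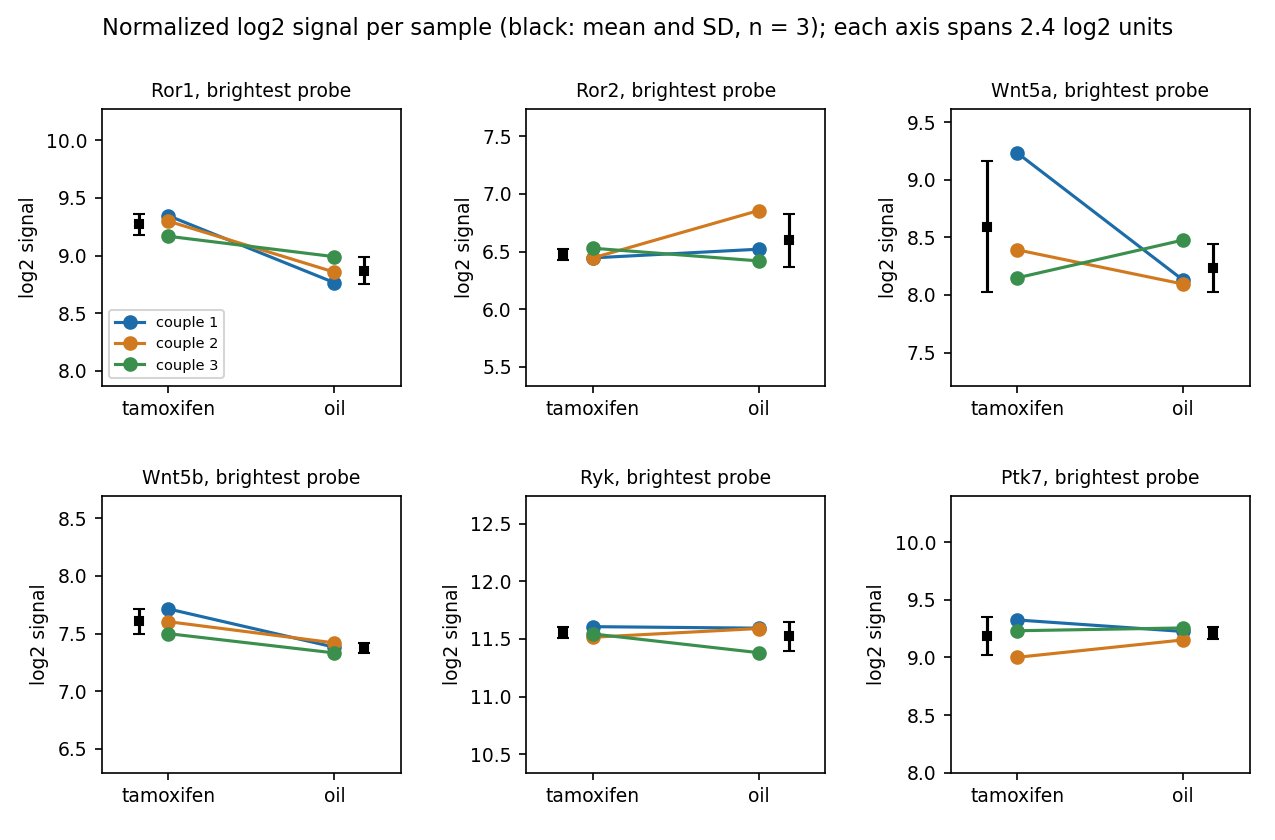
Normalized log2 signal (vertical axis) of the brightest probe of each gene in tamoxifen and oil samples, with lines joining the samples of a couple and black marks for the mean and SD (n = 3). The tamoxifen points of Ror1 and Wnt5b all lie above the oil points, and the tamoxifen point of couple 1 for Wnt5a stands at 9.23.

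Ryk, a WNT5A-binding receptor, read 11.6, 11.5 and 11.5 in tamoxifen tumors and 11.6, 11.6 and 11.4 in oil tumors on probe 1. The samples of both groups covered much the same levels. The mean log2 ratio was 0.033 ± 0.12 (SD, n = 3), with a 95% interval of -0.20 to 0.26 and an adjusted limma p of 0.94. The dye orientations of a couple differed by up to 0.36. A second probe, also above background in all readings, gave 0.089 ± 0.088 (SD, n = 3), and its remaining probe was above background in none.

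Ptk7, a receptor of the planar cell polarity branch, read 9.33, 9.0 and 9.23 in tamoxifen tumors and 9.23, 9.15 and 9.26 in oil tumors. The tamoxifen samples spread over 0.32 and enclosed the oil samples, which spread over 0.10. The mean log2 ratio was -0.025 ± 0.13 (SD, n = 3), with a 95% interval of -0.26 to 0.21 and an adjusted limma p of 0.96. Its other probe was above background in no reading.

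Wnt5a, the ligand most often tied to ROR receptors, differed between couples more than most genes. Probe 1 read 9.23, 8.39 and 8.15 in tamoxifen tumors, against 8.13, 8.09 and 8.48 in oil tumors. The groups overlapped. The tamoxifen sample of couple 1 was the highest of the 6, and in couple 3 the oil sample was the higher. The couples gave 1.10, 0.30 and -0.33, of which the first is a 2.15-fold higher level. A log2 ratio over 1 in couple 1 was found for 0.630% of tested genes, and an SD over couples as large as that of Wnt5a for 2.67%. The mean was 0.36 ± 0.72 (SD, n = 3), with a 95% interval of -0.38 to 1.09 and an adjusted limma p of 0.79. Without couple 1 it was -0.016, and without couple 3 it was 0.70.

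Wnt5a probe 2 was also above background in all readings. It gave 1.31, 0.38 and -0.19 over the couples, a mean of 0.50 ± 0.76 (SD, n = 3). On no array did probes 1 and 2 differ by more than 0.28. The intron-crossing probe 3 was above background in 1 of 6 tamoxifen readings and 0 of 6 oil readings, and its mean of 0.00079 ± 0.14 is a reading of background.

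Wnt5b, the second ligand, read higher in every tamoxifen sample on probe 1, and its probes differed. Probe 1 read 7.71, 7.60 and 7.50 in tamoxifen tumors, against 7.38, 7.42 and 7.33 in oil tumors. The groups did not overlap, and the couples gave 0.33, 0.18 and 0.17. The mean was 0.23 ± 0.09 (SD, n = 3), with a 95% interval of 0.011 to 0.44, an unadjusted limma p of 0.043 and an adjusted p of 0.69. The difference did not pass the test, and 6.34% of tested genes had a larger ratio. Probe 2, which starts 462 bases away and was above background in all readings, gave -0.0076, 0.14 and -0.058, a mean of 0.026 ± 0.10. The mean over both probes was 0.13, and the scanner software's ratio for probe 1 was 0.38.

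**Figure D2:**
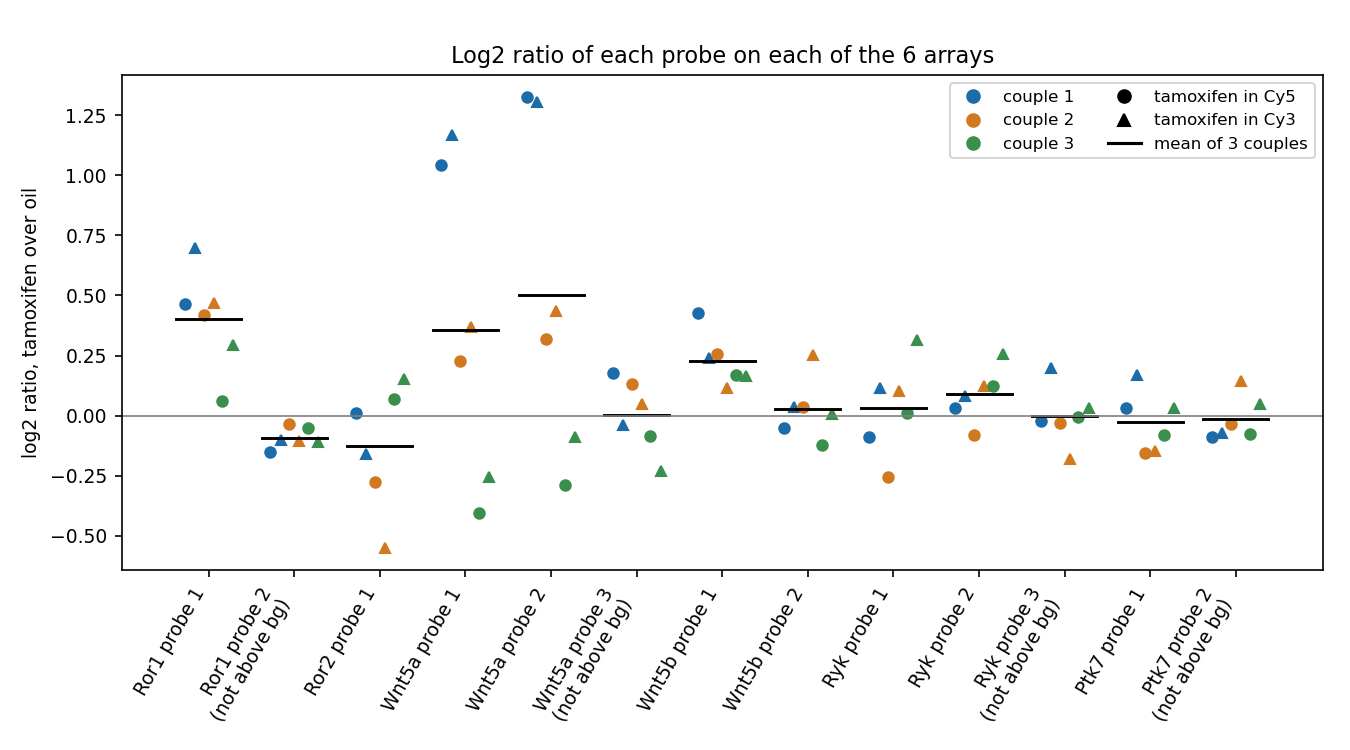
Log2 ratio of tamoxifen over oil on each of the 6 arrays, by couple and dye orientation. Ror1 and Wnt5b probe 1 lie above 0 on every array, and Wnt5a probes 1 and 2 both lie above 1 in couple 1 and below 0 in couple 3. Bars mark the mean of 3 couples.

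The other genes of the pathway were described by lists, beside all tested genes, of which 48.8% lay above 0 with a median log2 ratio of -0.0039. None of the genes in the 5 lists passed the limma test in either direction. Among the Frizzled receptors and the listed co-receptors, 11 of 14 were tested, 8 above and 3 below 0, with a median of 0.031. The couple medians were 0.17, -0.030 and -0.013, and without couple 1 the count was 5 above and 6 below. Fzd7 had a mean of 0.33 ± 0.17 and Fzd3 0.30 ± 0.07, both Frizzled receptors. Background was cleared by Fzd3 on 6 of 6 arrays for tamoxifen and 4 of 6 for oil; the scanner software's ratio gave 0.97 for it, and the arrays with tamoxifen in Cy5 gave 0.17. Mcam, an adhesion molecule that binds WNT5A, had -0.13 ± 0.17, and Fzd4 -0.14 ± 0.18. Each SD here and below is over 3 couples. Fzd7 and Fzd3 were above 0 on all 6 arrays, as were 6.04% of tested genes. Among the named genes of the lists below, so were Gpc3, Gpc4, Sp5 and Rnf43.

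Genes for Wnt secretion and extracellular modulators had 11 of 12 tested, 5 above and 6 below 0, with a median of -0.093. Without couple 3 the count was 6 above and 5 below, with a median of 0.0025. Sfrp1, Sfrp2 and Wif1, all below 0, cleared background on 3 arrays for tamoxifen and on 4, 5 and 6 for oil. The filter accepts a gene by either group's channel, so the count below 0 is not independent of it. A filter of all 6 arrays in either group's channel left 7 genes. The glypicans Gpc3 and Gpc4, cell-surface proteoglycans, had 0.64 ± 0.40 and 0.43 ± 0.26. The secreted Wnt antagonist Sfrp4 had -0.47 ± 0.51, but cleared background on 1 of 6 arrays for tamoxifen and 4 of 6 for oil, and the scanner software's ratio was -1.78. Cthrc1, a secreted protein that in mice promotes ROR2 and Frizzled complexes with WNT5A, had -1.13 ± 1.47, with couples of 0.42, -2.51 and -1.29. Its spread exceeded its mean.

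The intracellular arm had 29 of 31 genes tested, 10 above and 19 below 0, with a median of -0.021. Without couple 2 the count was 14 above and 15 below. Among planar cell polarity genes, Celsr2 had 0.33 ± 0.39 and Vangl2 0.31 ± 0.35, while Celsr1 had -0.42 ± 0.18 and Prickle1 -0.46 ± 0.38. The scanner software's ratio for Celsr2 was 0.80, and the mean of all its probes was 0.17. For Vangl2 these were 0.39 and 0.17, and for Prickle1 -0.51 and -0.31. All 6 arrays were below 0 for Celsr1, as for 4 of the 29 genes of this list and 7.21% of tested genes. Above 0 on all 6 was 1 gene of this list, beside 6.04% of tested genes. Met and Nkd1 of the next lists were also below 0 on all 6. Genes named as ROR1 partners in lung adenocarcinoma had 10 of 10 tested, 2 above and 8 below 0, with a median of -0.11. Without couple 2 the count was 5 above and 5 below, with a median of -0.017. Caveolin gene Cav1 had 0.099 ± 0.21 and the kinase Src 0.094 ± 0.37, against -0.16 ± 0.34 for Hif1a and -0.31 ± 0.28 for the receptor Met.

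Feedback targets of beta-catenin, the other branch of Wnt signalling, had 8 of 10 genes tested, 7 above and 1 below 0, with a median of 0.083. The couple medians were 0.37, -0.064 and -0.010, and without couple 1 the count was 4 above and 4 below. The transcription factor Sp5 had 0.74 ± 0.54, the Wnt receptor ligase Rnf43 0.32 ± 0.30 and the Dishevelled inhibitor Nkd2 0.0022 ± 0.36. Its relative Nkd1 had couples of -0.91, -1.39 and -0.85, a mean of -1.05 ± 0.29. The adjusted limma p of Nkd1 was 0.67, and 0.0117 and 0.0459 in the fits with couple as a random block.

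**Figure D3:**
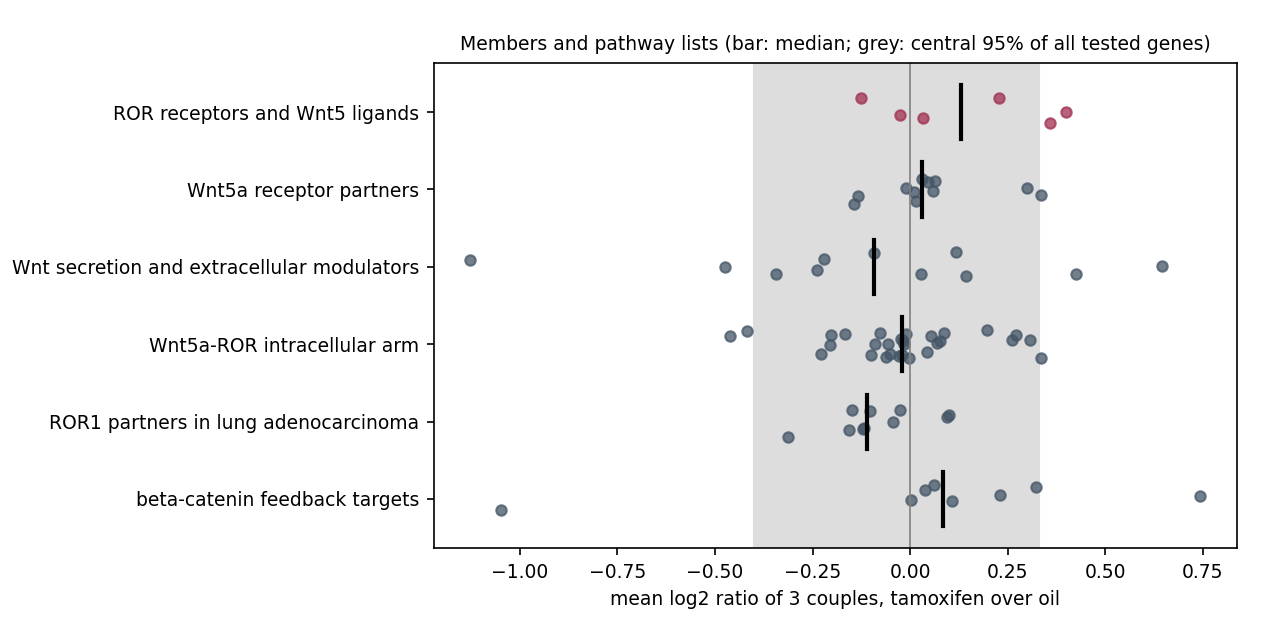
Mean log2 ratio of tamoxifen over oil for every tested gene of the 5 pathway lists, with the 6 genes in red, a bar at each median and grey for the central 95% of all tested genes. The grey band ran from -0.40 to 0.33, and Nkd1 and Cthrc1 lie below -1.

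Genes whose ratios over the 6 arrays lay nearest to each member were ranked by the root mean square difference. The distance is over single arrays, so a shared difference between dye orientations counts as likeness. The 3 nearest of 20475 tested genes are close by choice, and a link to the member was not tested. Nearest to Ror1 were the kinesin gene Kif3c, the autophagy gene Wdr45 and the peptide transporter Slc15a1, at 0.072, 0.091 and 0.091 log2 units, with mean log2 ratios of 0.35, 0.35 and 0.40. Nearest to Ror2 were BX527879, Gpr34 and Cd82, at 0.061, 0.067 and 0.073. Nearest to Wnt5a were the metalloprotease Adam28 at 0.093, and the transcripts ENSMUST00000099683 and ENSMUST00000099050 at 0.097 and 0.10. Nearest to Wnt5b were Dtx4, Mtmr9 and a probe for a region of chromosome 6, at 0.033, 0.040 and 0.047. Nearest to Ryk were a probe for a region of chromosome 14, Ucp2 and Rps2, at 0.042, 0.046 and 0.049. Ryk read -0.11 with tamoxifen in Cy5 and 0.18 with it in Cy3. These neighbours turned likewise, from -0.11, -0.10 and -0.11 to 0.155, 0.146 and 0.188. Nearest to Ptk7 were Tlx2, Pex6 and Lgi3, at 0.036, 0.039 and 0.039. The ranking used the tested probe of each gene. The mean of all probes was 0.32, 0.21 and 0.29 for Kif3c, Wdr45 and Slc15a1. It was 0.19 for Adam28, against 0.33 on its tested probe, and -0.18 for Lgi3, against -0.027.

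Markers of the cell types that a tumor can hold were read on the same arrays, and none passed the limma test. The 9 alveolar type 2 markers, the epithelium in which the transgene is driven, all passed the background filter and 8 of 9 lay below 0. Their summed normalized signal, in which the brightest markers weigh most, was 592920 to 596160 in tamoxifen and 708870 to 741630 in oil. Of single tested genes, 7.12% had all tamoxifen levels below all oil levels. The couple medians of these markers were -0.21, -0.32 and -0.23. Of the 9, 3 were below 0 on all 6 arrays, as were 7.21% of tested genes. Sftpc was above 0 on 3 of 6 arrays, and Etv5 had a mean of 0.11 ± 0.40. The 7 alveolar macrophage markers all lay below 0, with couple medians of -1.13, 0.075 and -0.43 and sums of 49936 to 211980 in tamoxifen and 84234 to 165640 in oil. Of the 8 fibroblast markers, 6 lay below 0, with sums of 15193 to 25154 in tamoxifen and 17743 to 26853 in oil. The 6 alveolar type 1 markers had couple medians of -0.39, -0.070 and 0.51, and sums of 94012 to 121670 in tamoxifen and 105850 to 126490 in oil. The 6 endothelial markers all lay above 0, with couple medians of -0.16, 0.11 and 0.25, and 3 of 4 tested B cell markers lay above 0. All 5 smooth muscle, 6 heart muscle and 3 tested mesothelial markers lay below 0, with medians of -0.075, -0.20 and -0.28. Without couple 2, smooth muscle stood at 2 above and 3 below 0, and endothelial at 4 above and 2 below. Heart muscle stood at 1 above and 5 below without couple 2, and the same without couple 3. Its markers Myl7 and Tnni3 cleared background on 3 arrays for tamoxifen, and on 6 and 5 for oil. Alveolar type 1 stood at 5 above and 1 below without couple 1, and at 1 above and 5 below without couple 3. The 3 mesothelial markers stayed below 0 whichever couple was left out. The mesothelial markers Upk3b and Lrrn4 and the B cell marker Cd79a did not pass the background filter. The part of any cell type in the ratios of the 6 genes was not tested.

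**Figure D4:**
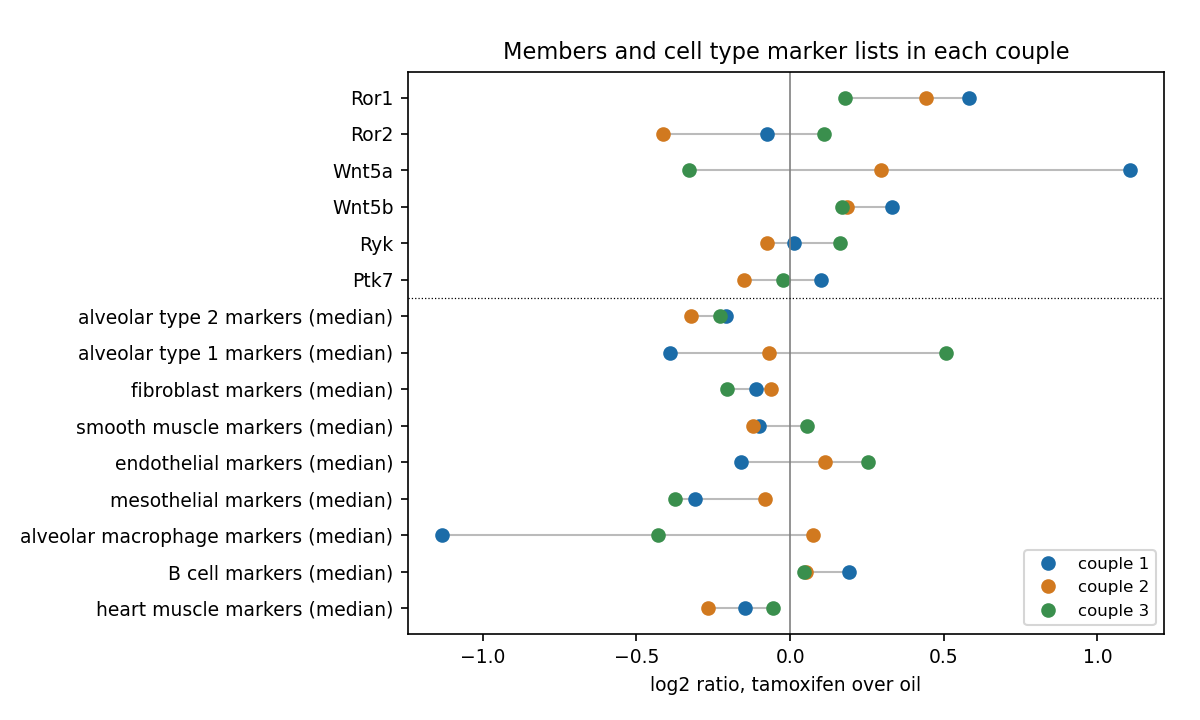
Log2 ratio of tamoxifen over oil in each couple for the 6 genes and, below the dotted line, the median of each cell type marker list. Couple 1 holds the highest ratios of Ror1, Wnt5a, Wnt5b and Ptk7. It also holds the lowest medians of the alveolar type 1, endothelial and alveolar macrophage markers. The alveolar type 2 medians lie below 0 in every couple.

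**Figure D5:**
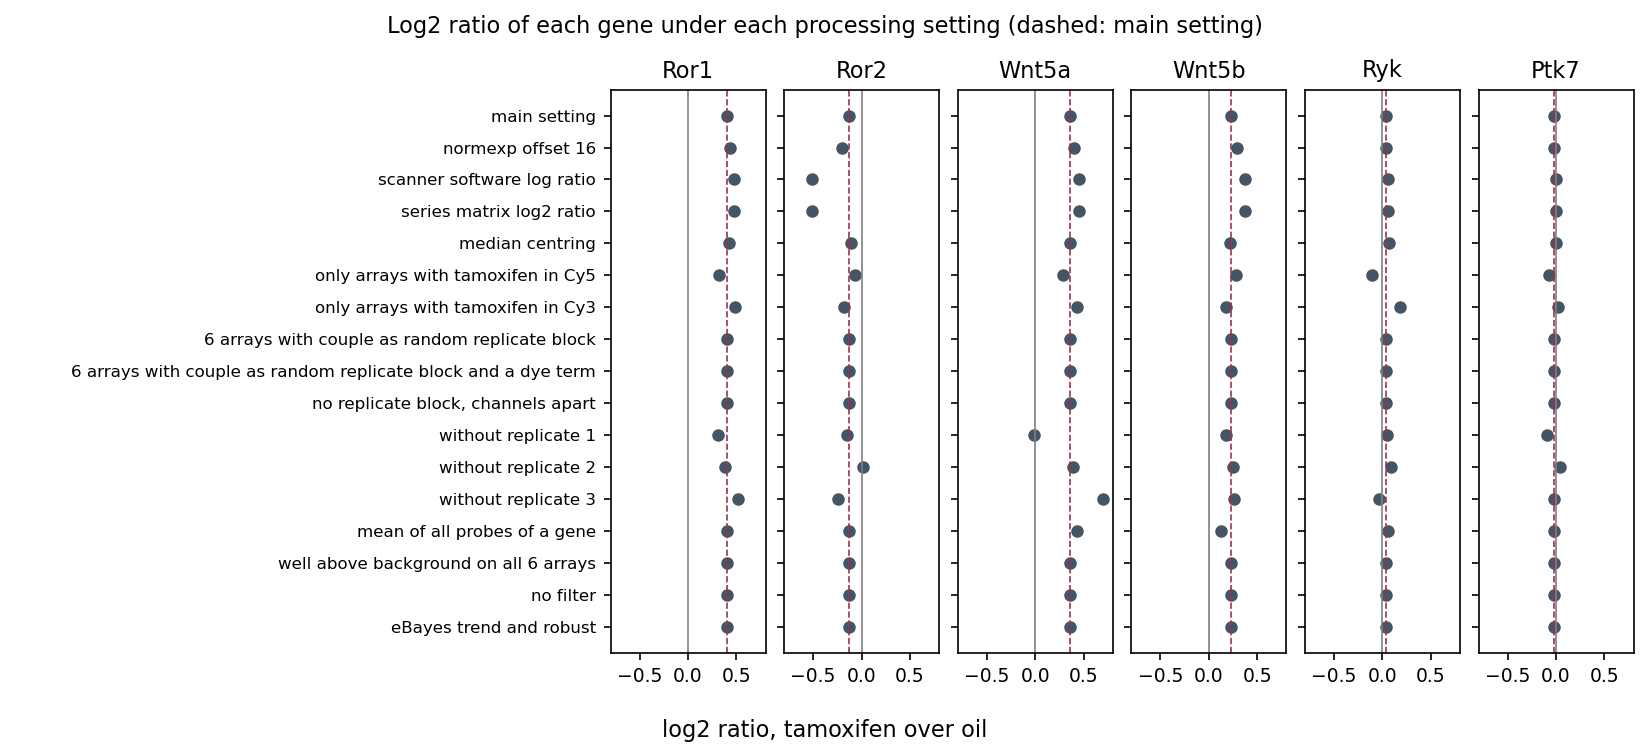
Mean log2 ratio of tamoxifen over oil of each gene under every processing setting. Ror1 stays between 0.31 and 0.51 and Wnt5b between 0.13 and 0.38, while Wnt5a, Ror2, Ryk and Ptk7 cross 0 under at least 1 setting.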

How the data were processed

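RNA of lung tumors was labelled from 50 ng and hybridised to 6 arrays. The deposited files hold, per the file headers, mean and background intensity for each spot and colour, and the log10 ratio of red over green. The submitters' processing notes name Agilent Feature Extraction 12.0.3.1 as the scanner software. The deposited series table holds log2 ratios of red over green. They follow the scanner's log10 ratio with a slope of 3.32, the change of log base. Their medians ran from -0.15 to 0.14 over the arrays, so they were not centred.

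With limma 3.58.1 in R 4.3.3, intensities were background-corrected (normexp, offset 50) and loess-normalized within arrays, with no weight on control spots. Control and outlier spots were left out afterwards, so outlier spots took part in the normalization. Ratios were then turned to tamoxifen over oil. Sample levels used Aquantile normalization and the mean of both dyes. The brightest probe of each gene was tested where the scanner called it well above background on the array pair of at least 2 couples, in either group's channel. Couple means were tested against 0 (lmFit, eBayes), with Benjamini-Hochberg adjustment; the test was checked on simulated data. Pairing comes from the arrays, which hold both samples of a couple. Arrays limit precision by their number.

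The members and lists were chosen with earlier results of these data known. Named genes are all members, the 2 highest and 2 lowest of each pathway list with any past the threshold, and the 3 nearest genes to each member. Sfrp1, Sfrp2 and Wif1 are named besides, for their detection above background. Sequences of probes other than those printed are not reported here.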

Additional observations from a re-analysis of the deposited data

How the results depend on the processing

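Over 16 alternatives to the reported settings, Ror1 ranged from 0.31 to 0.51 with adjusted limma p of at least 0.28. Wnt5b ranged from 0.13 to 0.38 with adjusted limma p of at least 0.40. Neither changed direction or passed the threshold. Alternatives that changed only the fit or the gene filter could not move a ratio. The scanner's ratio and the deposited series table gave nearly the same values, so the alternatives are not independent checks of direction. Leaving out each couple in turn gave -0.016 to 0.70 for Wnt5a, -0.24 to 0.017 for Ror2, -0.088 to 0.038 for Ptk7 and -0.032 to 0.088 for Ryk. With only the arrays that held tamoxifen in Cy5, Ryk was -0.11, and with tamoxifen in Cy3, Ptk7 was 0.018. The count of genes called was 0 by the reported limma fit, 56 with couple as a random replicate block, 9 with a dye term added to that block (chosen after seeing the data) and 1 with no replicate block and the channels apart; the cause was not tested. Both fits with the block called 1 beta-catenin feedback target, Nkd1. Leaving out a couple also turned Src (-0.11 to 0.26), Adam28 (-0.017 to 0.70), Cd82 (-0.22 to 0.022), Nkd2 (-0.18 to 0.18), the chromosome 14 region (-0.048 to 0.060), Ucp2 (-0.028 to 0.065), Rps2 (-0.028 to 0.074), Tlx2 (-0.062 to 0.061), Pex6 (-0.064 to 0.033) and Lgi3 (-0.086 to 0.028). With tamoxifen in Cy5 only, Mcam was 0.33, Fzd4 0.087, Nkd2 -0.027, the chromosome 14 region -0.11, Ucp2 -0.10 and Rps2 -0.11. With tamoxifen in Cy3 only, Cav1 was -0.11, Tlx2 0.050, Pex6 0.042 and Lgi3 0.028. Median centring gave 0.013 for Tlx2, 0.0033 for Pex6 and 0.026 for Lgi3. The scanner's ratio and the deposited series table both gave 0.0021 for Lgi3. The mean of all probes gave -0.013 for Nkd2 and -0.0022 for Ucp2. The cause of these reversals was not tested. Gpc4 ranged from 0.14 to 0.71 and Cthrc1 from -1.90 to -0.44 without a change of direction. Low signal over background limits Ror2, Fzd3, Sfrp1, Sfrp2, Sfrp4 and Wif1, and 3 couples limit every test.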
